A study of Mus musculus with 8 samples.

Results

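The genes examined were 10 receptor, adapter and signalling genes of mouse microglia, chosen by name with earlier results of these data known. *Fcgr1*, *Fcgr3* and *Fcgr4* encode activating receptors for IgG, and *Fcgr2b* encodes the inhibitory one. *Fcer1g*, *Tyrobp* and *Hcst* encode adapters, *Trem2* encodes a lipid-sensing receptor, and *Syk* and *Plcg2* encode enzymes that act below these receptors. All 10 were among the 20308 genes of the deposited tables, and all 10 passed the filter on low counts, which 13407 genes did.

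An activating Fc gamma receptor binds the constant part of IgG on opsonized material but signals through a partner, the common gamma chain encoded by *Fcer1g*, which carries an immunoreceptor tyrosine-based activation motif (ITAM). TREM2, the microglial receptor for lipids and apolipoproteins, pairs in the same way with DAP12, the ITAM adapter encoded by *Tyrobp*, and also with DAP10, the adapter encoded by *Hcst*, which recruits phosphoinositide 3-kinase instead. Phosphorylated ITAMs recruit the kinase SYK, and SYK activates phospholipase C gamma 2, encoded by *Plcg2*, while FcγRIIB opposes the activating receptors through an inhibitory motif of its own.

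RNA came from CD11b+ cells, which were taken with magnetic beads from the right brain hemisphere of mice of the C57Bl/6 X CD1 F1 background at p14 or p15. Microglia and other myeloid cells carry CD11b, an integrin, on their surface. Control mice (n = 4, animals 1827, 1872, 1874 and 1934) were compared with CSF1 OE mice (n = 4, animals 1931, 1932, 1936 and 2019), with 1 library per mouse and nothing pooled. In CSF1 OE mice a tetracycline-regulated transgene makes secreted CSF1, the growth factor of microglia, in a subset of GFAP+ cells. Which transgene alleles, if any, the control mice carried, and the sex of the mice, are not given in the sources used here. The transgene is driven in GFAP+ cells and the RNA was from CD11b+ cells, so *Csf1* is no check of the group labels here. Its expression was 282 ± 98.7 CPM (counts scaled to 1 common normalized library size) in the controls and 322 ± 107 CPM in CSF1 OE mice (SD, n = 4 each), and its receptor *Csf1r* had 9722 ± 2240 and 10091 ± 1454 CPM.

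Total counts per library ranged from 12908144 to 15475465 in control and from 12053259 to 14356532 in CSF1 OE mice. The 10 homeostatic microglia markers (among them *P2ry12*, *Tmem119* and *Cx3cr1*) summed to between 19991 and 35474 CPM in the controls and between 26046 and 38075 CPM in CSF1 OE mice, and 0 of 10 were called, 0 of them at an unadjusted p under 0.05 and 0 by DESeq2. Control mouse 1934 stood apart from the other controls. It had the lowest sum of homeostatic microglia markers (19991 CPM) and the highest sums of oligodendrocyte lineage (5691 CPM), neuron (305 CPM) and red blood cell markers (936 CPM) of the 8 libraries. It also had the lowest CPM of all 8 libraries in 10 of the 10 genes examined, so the log2 fold change of each gene without it is given beside the main one or with the animal numbers. CSF1 OE mouse 2019 lay at the other end. Of the 8 libraries it had the highest sum of homeostatic microglia markers (38075 CPM). Its sums of oligodendrocyte lineage (1492 CPM), neuron (39.0 CPM) and red blood cell markers (38.5 CPM) were the lowest. In 6 of the 10 genes it was the highest CSF1 OE mouse. Without mouse 2019 the log2 fold change was 0.35 for *Fcgr1*, 0.56 for *Hcst*, 0.38 for *Tyrobp* and 0.94 for *Fcgr4*. In bulk RNA, fewer cells of a type and less RNA per cell cannot be told apart.

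CSF1 OE mice were compared with control mice to see what excess CSF1 does to gene expression in microglia, here for the Fc receptor and TREM2 pathways. By edgeR's quasi-likelihood test, 0 of the 10 genes were called, where a call needs a Benjamini-Hochberg adjusted p under 0.05 over all genes tested and a fold change below 0.7 or above the inverse of 0.7. Over all genes tested, 0.440% were called. At an unadjusted p under 0.05 there were 4 of the 10 genes (*Fcgr1*, *Fcgr4*, *Tyrobp* and *Hcst*), where 16.5% of all genes tested had such a p, and DESeq2 called 1 (*Fcgr4*) and limma 0, while limma called 0.776% of all genes. The log2 fold change was above 0 in 9 of the 10 genes, with a median of 0.32, beside a median of -0.03 over all genes tested. Without control mouse 1934, it was above 0 in 8 of the 10 genes, with a median of 0.20. The values of the groups did not overlap in 2 of the 10 genes, *Fcgr4* and *Hcst*, both higher in CSF1 OE mice. Over all genes tested, 10.3% had non-overlapping values, and in 6.84% these were higher in CSF1 OE mice.

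**Figure D1:**
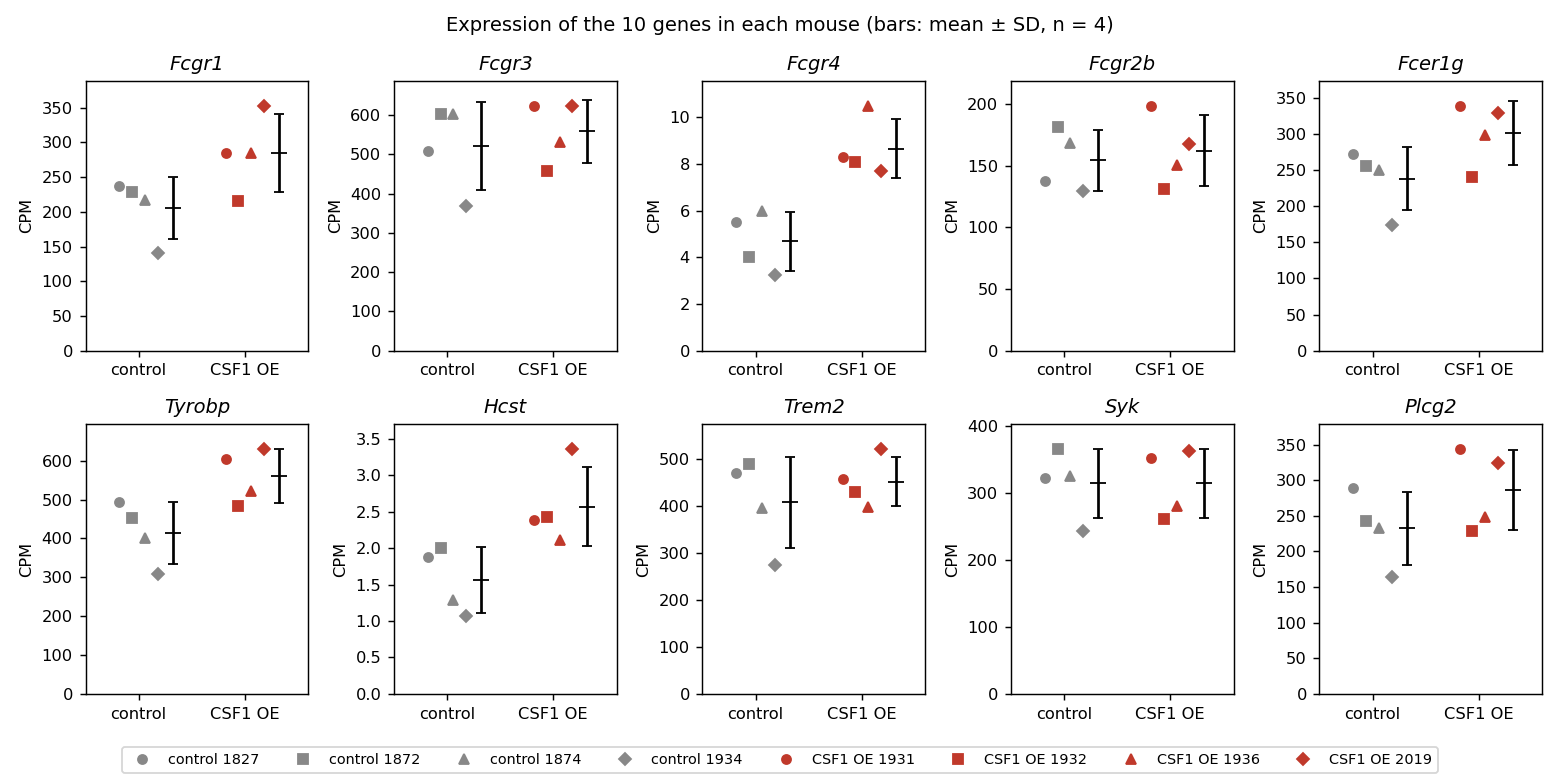
Expression of each gene in CPM (vertical axes, from 0) in each of the 8 mice, with points for single mice and bars for the mean ± SD of a group (n = 4). Grey and red points overlap in 8 of the 10 panels and are apart in *Fcgr4* and *Hcst*, and control mouse 1934, the grey diamond, is the lowest point of every panel.

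*Fcgr4* encodes FcγRIV, which binds IgG2a and IgG2b. It had the fewest counts of the 4 IgG receptors and the largest log2 fold change of the 10 genes. Control mice 1827, 1872, 1874 and 1934 had 5.51, 4.01, 5.97 and 3.25 CPM, and CSF1 OE mice 1931, 1932, 1936 and 2019 had 8.29, 8.08, 10.5 and 7.70 CPM. The lowest CSF1 OE mouse was thus above the highest control mouse. The means were 4.69 ± 1.27 and 8.64 ± 1.26 CPM (SD, n = 4 each), from between 55 and 154 counts per library. The log2 fold change was 0.89 (SE, the standard error, 0.23), with an adjusted p of 0.108 and an unadjusted p of 0.00353 by edgeR. Over 18 alternatives the log2 fold change lay between 0.75 and 1.03 and the adjusted p between 0.00718 and 0.825. DESeq2 called it (adjusted p = 0.00718), as it did 3.14% of the genes it gave an adjusted p.

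*Fcgr1* encodes FcγRI, the high-affinity IgG receptor. It had 237, 228, 218 and 141 CPM in the controls and 285, 215, 285 and 353 CPM in CSF1 OE mice, in the same order of animals. Every CSF1 OE mouse but 1932 was above every control, and mouse 1932 was below 3 of the 4 controls. The means were 206 ± 44.2 and 285 ± 56.3 CPM, with a log2 fold change of 0.47 (SE 0.19, edgeR adjusted p = 0.269). Without control mouse 1934 the log2 fold change of *Fcgr1* was 0.34.

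*Fcgr3* encodes FcγRIII, a low-affinity activating receptor for IgG complexes, and was the IgG receptor with the most counts. Its CPM were 510, 603, 604 and 368 in the controls and 623, 458, 532 and 625 in CSF1 OE mice, so the ranges of the groups overlapped. The log2 fold change was 0.10 (SE 0.18, edgeR adjusted p = 0.791), and it was -0.020 without control mouse 1934.

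*Fcgr2b*, the gene of the inhibitory receptor, had 138, 182, 168 and 129 CPM in the controls and 199, 131, 150.5 and 168 CPM in CSF1 OE mice. The groups overlapped over nearly their whole range. Its log2 fold change was 0.07 (SE 0.15, edgeR adjusted p = 0.830), and -0.039 without CSF1 OE mouse 1931. *Fcgr2b* and *Fcgr3* are related genes, and 44 of the 100-base windows of their exons were identical, which is 0.753% of the windows of *Fcgr2b* and 2.54% of those of *Fcgr3*. With any other gene, *Fcgr2b* shared 82 windows (1.40%). RSEM divides reads that fit several genes, so the counts of these 2 genes are uncertain. Summed to 1 feature before the fit, they had a log2 fold change of 0.095 (SE 0.17, edgeR adjusted p = 0.798). No window of *Fcgr1* or *Fcgr4* was shared with another gene.

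On GRCm38 (GENCODE M21), *Fcgr2b* lies on chromosome 1 from 170958617 to 170976547 (minus strand), *Fcgr4* from 171018920 to 171029761 (plus), *Fcgr3* from 171051174 to 171064935 (minus) and *Fcer1g* from 171229572 to 171234365 (minus), within 275.7 kb. *Fcgr1* lies alone on chromosome 3 from 96282909 to 96293969 (minus). In the order of the chromosome 1 genes, the log2 fold changes were 0.07 (*Fcgr2b*), 0.89 (*Fcgr4*), 0.10 (*Fcgr3*) and 0.34 (*Fcer1g*), none of which was called.

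The 250 bases before the start sites of *Fcgr4*, *Fcgr1* and *Fcgr2b* are shown. Such a window was available for 9 of the 10 genes, and of these the first 2 held an interferon motif. *Fcgr2b*, the gene of the inhibitory receptor, is set beside them. Sequences are from RefSeq on GRCm38.p6, written 5′ to 3′ on the strand of the gene. Capitals mark matches on either strand to the PU.1 box GAGGAA, where the myeloid factor PU.1 can bind, to the interferon response core, which is GAAA repeated after a gap of any 2 bases, and to the gamma-activated sequence TTCNNNGAA of interferon gamma responses. The 3 windows are chr1:171018676-171018925 (plus), chr3:96293970-96294219 (minus) and chr1:170976072-170976321 (minus).
Fcgr4: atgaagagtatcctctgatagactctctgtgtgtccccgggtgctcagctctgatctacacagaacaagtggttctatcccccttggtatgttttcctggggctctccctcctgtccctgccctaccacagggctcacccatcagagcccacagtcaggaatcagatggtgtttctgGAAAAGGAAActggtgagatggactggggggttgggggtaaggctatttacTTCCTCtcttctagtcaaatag
Fcgr1: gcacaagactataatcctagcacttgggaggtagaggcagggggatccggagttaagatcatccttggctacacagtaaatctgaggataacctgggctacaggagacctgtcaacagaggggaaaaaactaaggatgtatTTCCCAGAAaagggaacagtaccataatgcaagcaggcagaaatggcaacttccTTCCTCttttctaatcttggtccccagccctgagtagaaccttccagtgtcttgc
Fcgr2b: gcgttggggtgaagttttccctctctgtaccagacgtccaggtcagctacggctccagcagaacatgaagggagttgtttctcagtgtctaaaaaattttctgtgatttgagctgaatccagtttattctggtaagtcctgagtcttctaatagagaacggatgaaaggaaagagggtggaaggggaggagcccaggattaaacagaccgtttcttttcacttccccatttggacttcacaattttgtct

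In *Fcgr4* the interferon response core, GAAAAGGAAA, lay from position -73 to -64 relative to the start site, and a PU.1 box from -22 to -17. In *Fcgr1* the gamma-activated sequence, TTCCCAGAA, lay from -109 to -101, and a PU.1 box from -55 to -50. The *Fcgr2b* window held none of the 3 motifs. RefSeq starts this *Fcgr2b* transcript at another base than GENCODE M21, so that its window lies inside the gene as GENCODE gives it. Of the 10 genes, 9 had an entry among the RefSeq promoters, in 11 windows, and *Tyrobp* had none. The PU.1 box was in 5 of these 9 genes (*Fcgr1*, *Fcgr3*, *Fcgr4*, *Trem2* and *Syk*) and in 23.3% of all 32851 promoters. The 9 genes are counted by a match in any of their windows, while the shares over all promoters count single windows. *Syk* had no match in its first window. The interferon response core was in *Fcgr4* of the 9 and in 2.98% of all promoters, and the gamma-activated sequence in *Fcgr1* of the 9 and in 7.02%. A match is a description of the letters in the window and not a site shown to be bound.

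The make-up of the 4 IgG receptors can be read within each library, where the scaling between libraries plays no part. *Fcgr3* gave 58.7 ± 1.62% of the counts of the 4 genes in control and 55.2 ± 1.08% in CSF1 OE mice, with every CSF1 OE mouse below every control. *Fcgr1* gave 23.2 ± 2.29% and 28.0 ± 2.34%, where control mouse 1827 (26.6%) was above CSF1 OE mice 1931 (25.6%) and 1932 (26.5%). The share of *Fcgr4* was small but apart between the groups, at 0.530 ± 0.103% and 0.870 ± 0.194%. These shares are not independent of each other, since they sum to the whole in each library. Summed, the 4 receptors had 886 ± 172 CPM in the controls and 1015 ± 154 CPM in CSF1 OE mice, with overlapping ranges.

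In all, 7 ratios of counts between pairs of genes were tested by a two-sided exact permutation test, for which 4 mice against 4 allow no p below 0.0286 (70 assignments). The ratio of the activating *Fcgr4* to the inhibitory *Fcgr2b* was 4.00, 2.21, 3.56 and 2.52% in the controls and 4.18, 6.16, 6.97 and 4.59% in CSF1 OE mice. Every CSF1 OE mouse was above every control, although control mouse 1827 and CSF1 OE mouse 1931 were close. The log2 ratios differed by 0.84 (exact permutation p = 0.0286, Benjamini-Hochberg adjusted p = 0.100 over the 7 ratios).

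The ratio of *Trem2* to *Tyrobp*, the receptor against its adapter, was 0.954, 1.08, 0.987 and 0.895 in the controls and 0.757, 0.893, 0.761 and 0.828 in CSF1 OE mice. Here every CSF1 OE mouse was below every control, with control mouse 1934 and CSF1 OE mouse 1932 nearly equal. The log2 ratios differed by -0.28 (exact permutation p = 0.0286, adjusted p = 0.100), and by -0.23 to -0.32 with each mouse left out. Both ratios thus reached the smallest p that the design allows and did not pass the adjustment.

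The other 5 ratios did not reach that smallest p and did not pass either. *Fcgr1* to *Fcgr2b* differed by 0.41 on the log2 scale (exact permutation p = 0.0857, adjusted p = 0.16), *Plcg2* to *Syk* by 0.31 (exact permutation p = 0.114, adjusted p = 0.16) and *Hcst* to *Tyrobp* by 0.30 (exact permutation p = 0.114, adjusted p = 0.16). *Fcer1g* to *Tyrobp*, the ratio of the 2 ITAM adapters, differed by -0.10 (exact permutation p = 0.20, adjusted p = 0.233). *Fcgr3* to *Fcgr2b* differed by 0.05 (exact permutation p = 0.657, adjusted p = 0.657).

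**Figure D2:**
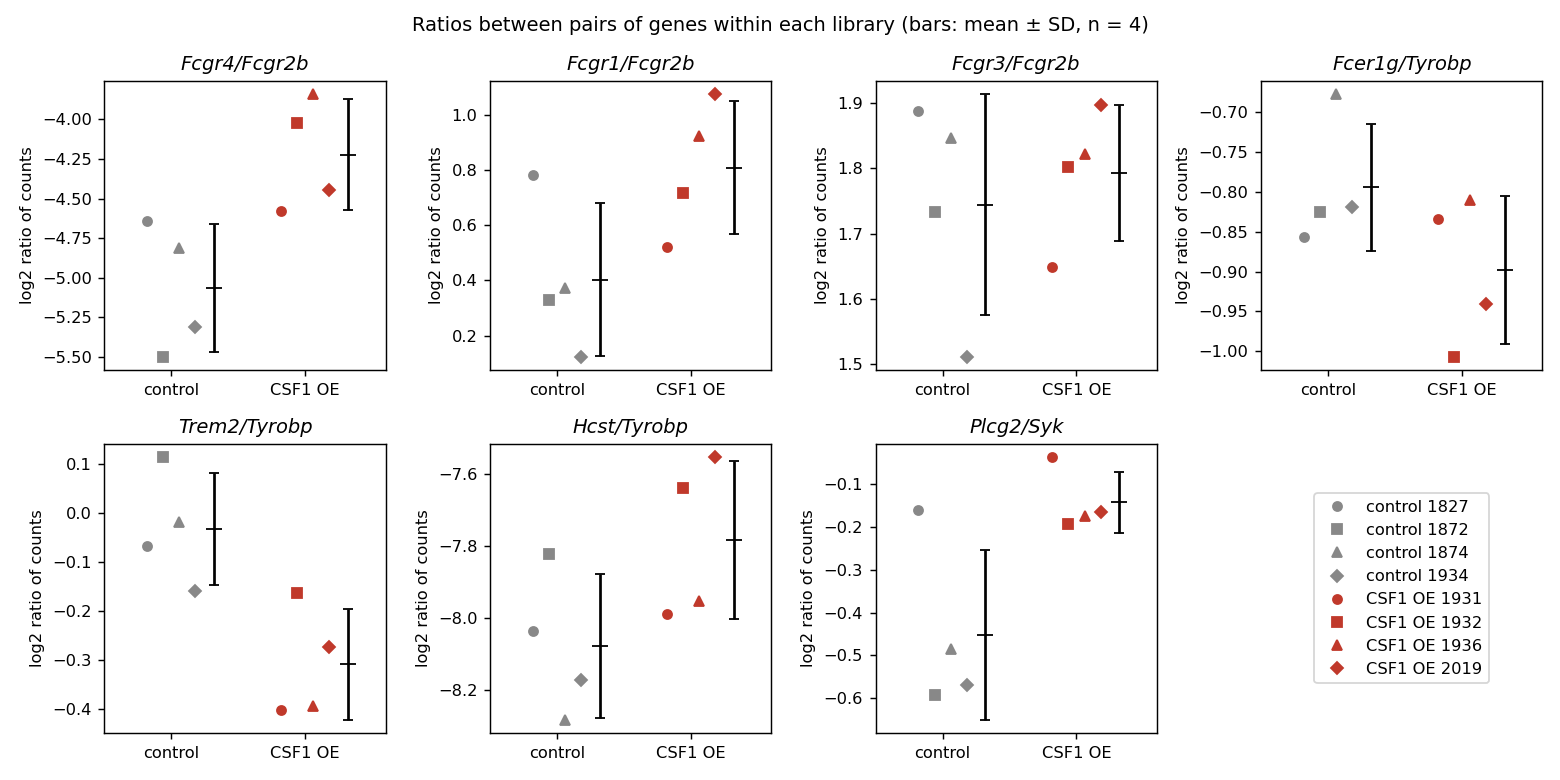
Ratios of counts between pairs of genes in the same library, on a log2 scale (vertical axes, which do not start at 0 and differ between panels), with points for single mice and bars for the mean ± SD (n = 4). Red points lie above all grey points for *Fcgr4*/*Fcgr2b* and below all of them for *Trem2*/*Tyrobp*, and the groups overlap in the other 5 panels.

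Of the adapters, *Tyrobp* (DAP12) had 494, 453, 401 and 307 CPM in the controls and 605, 483, 523 and 631 CPM in CSF1 OE mice. All 4 CSF1 OE mice were above the control median, and 3 were above every control. The means were 414 ± 80.5 and 560 ± 69.3 CPM, and the log2 fold change was 0.44 (SE 0.16, edgeR unadjusted p = 0.0216, adjusted p = 0.221). With control mouse 1827, 1872, 1874 or 1934 or any CSF1 OE mouse left out, it stayed between 0.33 and 0.53 and was not called.

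*Fcer1g*, the common gamma chain, had 273, 256, 250.5 and 174 CPM in the controls and 339, 240, 298 and 329 CPM in CSF1 OE mice. Mouse 1932 was the only CSF1 OE mouse within the control range. The log2 fold change was 0.34 (SE 0.16, edgeR adjusted p = 0.328). *Fcer1g* and *Tyrobp* were the closest pair among the 10 genes, with a root mean square difference of 0.0909 between their centred log2 CPM over the 8 libraries.

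*Hcst* (DAP10) had few counts, between 17 and 38 per library. It had 1.88, 2.01, 1.29 and 1.06 CPM in the controls and 2.38, 2.42, 2.11 and 3.36 CPM in CSF1 OE mice. Every CSF1 OE mouse was above every control, by 0.107 CPM between the nearest 2 mice. The means were 1.56 ± 0.456 and 2.57 ± 0.546 CPM, and the log2 fold change was 0.72 (SE 0.29, edgeR adjusted p = 0.265). *Hcst* lies on chromosome 7 from 30417712 to 30419854 (minus strand), and *Tyrobp* from 30413760 to 30417585 (plus strand), so that the 2 genes end towards each other, 126 bases apart. The library kit does not mark strand, and *Hcst* had 0.321 to 0.533% of the counts of *Tyrobp*, so reads that run past the end of *Tyrobp* could not be told from those of *Hcst* by strand. Their part in the *Hcst* values was not tested.

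*Trem2*, on chromosome 17 from 48346401 to 48354147 (plus strand), had 471, 491, 395 and 275 CPM in the controls and 458, 431, 398 and 522 CPM in CSF1 OE mice. Only mouse 2019 of the CSF1 OE mice was above every control. The means were 408 ± 97.7 and 452 ± 52.7 CPM, and the log2 fold change was 0.15 (SE 0.18, edgeR adjusted p = 0.706). Without control mouse 1934 it was 0.01.

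*Syk*, on chromosome 13 from 52583173 to 52648792 (plus strand), had equal means, 315 ± 51.2 CPM in both groups. The single values were 323, 366, 326 and 244 CPM in the controls and 353, 262, 280.1 and 364 CPM in CSF1 OE mice. Its log2 fold change was -0.00078 (SE 0.15, edgeR adjusted p = 0.998). *Plcg2*, on chromosome 8 from 117498291 to 117635142 (plus strand), had 289, 243, 233 and 165 CPM in the controls and 344, 229, 248 and 324 CPM in CSF1 OE mice. CSF1 OE mice 1931 and 2019 were above every control and the other 2 were within their range. The log2 fold change of *Plcg2* was 0.30 (SE 0.19, edgeR adjusted p = 0.460).

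The animal numbers fall into 2 ranges, 1931 to 1936 with 1 control and 3 CSF1 OE mice, and the others with 3 control and 1 CSF1 OE mice. The labels do not say that the ranges were handled apart, and since control mouse 1934 is the only control in its range, the range and that mouse cannot be told apart. Within the range 1931 to 1936 the log2 difference was 1.45 for *Fcgr4*, 1.11 for *Hcst*, 0.89 for *Fcgr1*, 0.80 for *Tyrobp*, 0.73 for *Fcer1g* and 0.64 for *Trem2*. In the other range it was 0.60 for *Fcgr4*, 0.99 for *Hcst*, 0.64 for *Fcgr1*, 0.50 for *Tyrobp*, 0.34 for *Fcer1g* and 0.21 for *Trem2*. These values have no test, since each range holds 1 mouse of 1 of the groups. In the other range, which holds only CSF1 OE mouse 2019 of its group, the difference was above 0 for all 10 genes, *Syk* included (0.11). Within 1931 to 1936 a difference above 0 (0.28 for *Syk*) was bound to occur. Control mouse 1934 had the lowest CPM of all 8 libraries in each of the 10 genes. Without control mouse 1934, the log2 fold change in the edgeR fit was 0.75 for *Fcgr4*, 0.58 for *Hcst*, 0.33 for *Tyrobp*, 0.23 for *Fcer1g*, 0.18 for *Plcg2*, 0.0092 for *Fcgr2b* and -0.092 for *Syk*, and 0 of the 10 genes were called. With a covariate for the range in the edgeR fit, 5 of the 10 genes were called higher, namely *Fcgr1* (log2 fold change 0.77, adjusted p = 0.0249), *Tyrobp* (0.65, adjusted p = 0.0275), *Hcst* (1.03, adjusted p = 0.0406), *Fcgr4* (1.01, adjusted p = 0.0429) and *Fcer1g* (0.54, adjusted p = 0.0444). In that fit 9.50% of all genes were called, and 2.25% were called higher.

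**Figure D3:**
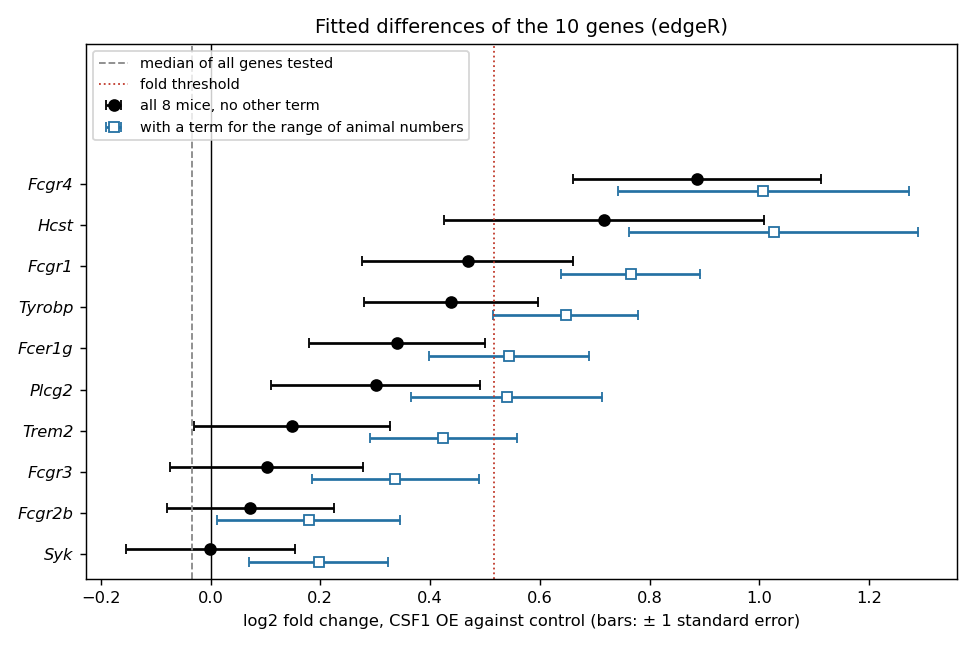
Log2 fold change of each gene, CSF1 OE against control (horizontal axis), with bars for ± 1 standard error. Filled circles are from the edgeR fit of all 8 mice and open squares from the fit with the range of animal numbers as a covariate, the dashed line is the median of all genes tested (-0.03) and the dotted line the upper fold threshold. *Fcgr4* and *Hcst* lie beyond the threshold in both fits, and every square lies to the right of its circle.

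Since the sum of microglia markers varied between libraries, each gene was also expressed per 1000 counts of the 10 homeostatic microglia genes, a scale chosen after seeing the data, whose values per mouse are given as a description. On this scale *Fcgr1* had 6.68, 6.48, 6.99 and 7.03 in the controls and 9.57, 8.24, 11.0 and 9.28 in CSF1 OE mice, with a far narrower control range than in CPM. *Tyrobp* had 13.9, 12.9, 12.9 and 15.4 in the controls and 20.3, 18.5, 20.1 and 16.6 in CSF1 OE mice, and no longer overlapped. *Hcst* (0.0511 ± 0.00680 and 0.0856 ± 0.00608), *Fcgr4* (0.156 ± 0.0322 and 0.298 ± 0.0831) and *Plcg2* (7.69 ± 0.624 and 9.59 ± 1.38) did not overlap either.

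The other 5 genes overlapped on this scale. *Trem2* had 13.4 ± 0.550 per 1000 in control and 15.2 ± 1.14 per 1000 in CSF1 OE mice, and *Syk* had 10.5 ± 1.27 and 10.5 ± 1.01. Thus 5 of the 10 genes had non-overlapping values that were higher in CSF1 OE mice, against 2 of the 10 in CPM. Over all genes tested the share was 1.45% on this scale and 6.84% in CPM. This scale takes variation in microglia content out of microglial genes and can add it to genes of other cells. The 1.45% is therefore not a like background for these 10 genes. With the libraries of the edgeR fit scaled in this way, 0 of the 10 genes and 0 of all genes tested were called, with 4 of the 10 genes and 574 of all genes tested at an unadjusted p under 0.05. The adjusted p was 0.584 for *Fcgr1* and 0.644 for *Tyrobp*.

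**Figure D4:**
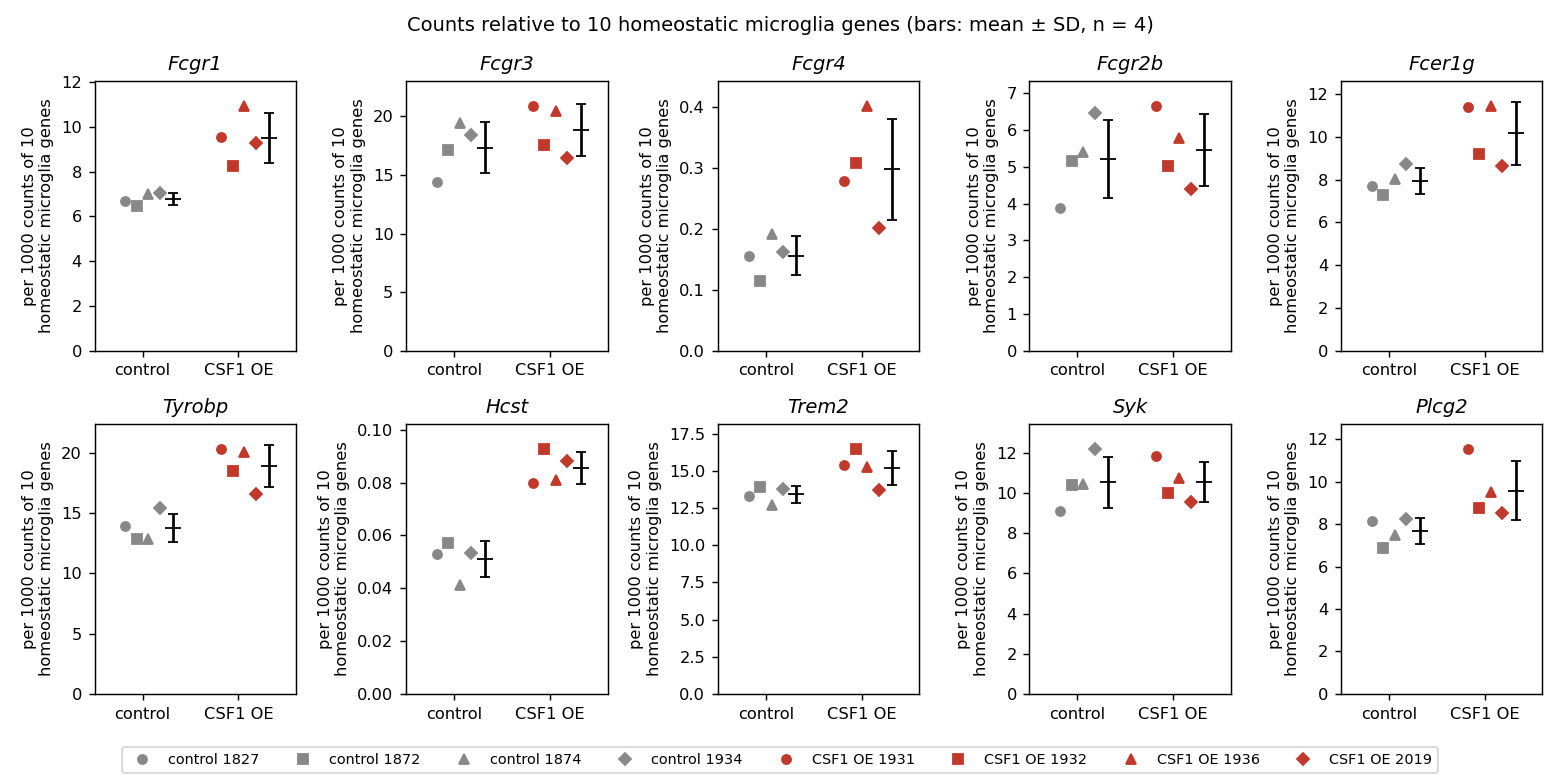
Counts of each gene per 1000 counts of the 10 homeostatic microglia genes (vertical axes, from 0) in each of the 8 mice, with points for single mice and bars for the mean ± SD (n = 4). Red points lie above all grey points in *Fcgr1*, *Fcgr4*, *Tyrobp*, *Hcst* and *Plcg2*, and control mouse 1934, the grey diamond, is within or above the range of the other controls in every panel.

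Levels of different genes were compared as counts per base of exon, scaled to the same total over all genes in every library (TPM). *Tyrobp* had the highest level, 2709 TPM as the mean of all 8 mice, and was above *Fcgr3* in 8 of 8 libraries. *Fcgr3* (1160 TPM) and *Fcer1g* (1148 TPM) followed and were not distinct, since *Fcgr3* was the higher one in 3 of 8 libraries. *Fcgr1* (351 TPM) and *Trem2* (323 TPM) were not distinct either, with *Fcgr1* higher in 4 of 8. Then came *Plcg2* (224 TPM), *Syk* (125.5 TPM), *Fcgr2b* (102 TPM), *Fcgr4* (19.7 TPM) and *Hcst* (10.6 TPM), each above the next in 8 of 8 libraries.

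The place of *Trem2* in this order rested on the length used. Its exons cover 4946 bases in GENCODE M21, while its longest coding transcript has 1088 bases. Per base of the longest coding transcript of each gene, a length added after the data had been seen, *Trem2* had 1053 TPM, beside 1071 TPM for *Fcgr3* and 1052 TPM for *Fcer1g*, and these 3 genes were not distinct. On that scale *Plcg2* was above *Syk* in 5 of 8 libraries and *Fcgr4* above *Hcst* in 6 of 8, so these neighbours were not distinct either. With either length the mean TPM of *Tyrobp* was above that of *Trem2* and that of *Hcst* below it, and the inhibitory *Fcgr2b* was below *Fcgr3* and *Fcgr1* and above *Fcgr4*.

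**Figure D5:**
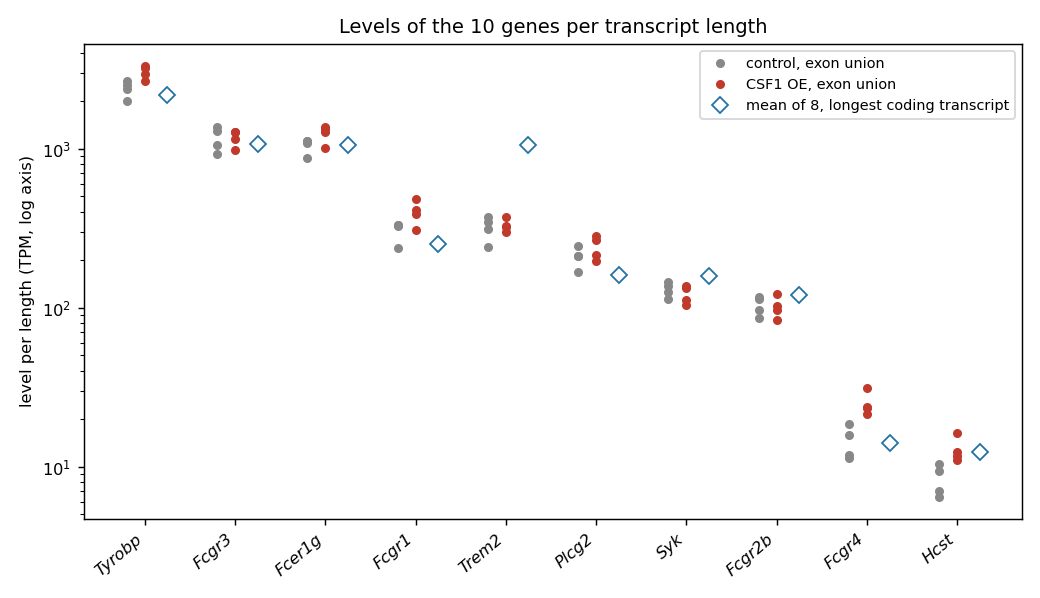
Level of each gene per transcript length in TPM (vertical log axis), with grey points for control and red points for CSF1 OE mice from the exon union length, and diamonds for the mean of 8 mice from the longest coding transcript. The genes span from 10.6 TPM for *Hcst* to 2709 TPM for *Tyrobp*, and *Trem2* is the gene whose diamond (1053 TPM) lies farthest from its points.

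The genes with the most similar pattern over the 8 libraries were found by the root mean square difference of centred log2 CPM. For *Fcgr4* they were among others *Cacnb2* (0.153) and *Mnda* (0.186), and for *Fcgr1* they were *Siglec1* (0.0844), *Tnfrsf14* (0.0940) and *Pon3* (0.111). *Siglec1* encodes a sialic acid receptor of macrophages. *Tyrobp* was closest to *Xlr* (0.0609), *Psap* (0.0614) and *Il4ra* (0.0684), *Fcer1g* to *Erp29* (0.0462), *Gpsm3* (0.0555) and *Hcls1* (0.0711), and *Trem2* to *Unc93b1* (0.0523), *Man2b2* (0.0526) and *Rnf128* (0.0526).

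*Psap* encodes the precursor of lysosomal saposins, and *Unc93b1* a chaperone of endosomal Toll-like receptors. *Plcg2* was closest to *Grn* (0.0582), the gene of the lysosomal protein progranulin, then *Actb* (0.0733) and *Ptpn18* (0.0742). *Hcst* was closest to *Il12rb2* (0.118), *Man2b1* (0.123) and *Tmem176a* (0.137), and *Syk* to *Atp6v0b* (0.0447), *Nfkb1* (0.050) and *Stk10* (0.0511). *Fcgr3* was closest to *Ap5b1* (0.0567), *Lrmp* (0.0587) and *Evl* (0.0672), and *Fcgr2b* to *Tmem150a* (0.0780), *Mtmr14* (0.0795) and *Plagl2* (0.0820). The libraries share the microglia content described above, so a small difference is a description of these 8 values alone.

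Other genes of the pathways were taken as whole lists. Of 24 other ITAM-coupled receptors, 10 were tested and 0 were called by edgeR, DESeq2 or limma, with 2 at an unadjusted p under 0.05 and a median log2 fold change of -0.05. The extremes were *Pira2* (1.04, adjusted p = 0.371 by edgeR), which was high in 1 CSF1 OE mouse at 15.6 CPM, and *Sirpb1c* (-1.17, adjusted p = 0.293). Without CSF1 OE mouse 2019, the mouse with the high *Pira2* value, the median of this list was -0.38. *Siglech*, a microglial receptor that pairs with DAP12, had 684 ± 117 and 800 ± 170 CPM.

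Of the 11 other Fc receptors and Fc receptor-like genes, 4 were tested, 0 were called by edgeR and all 4 log2 fold changes were below 0, with a median of -0.45 and 3 at an unadjusted p under 0.05. DESeq2 called 2 of them lower and limma 0. *Fcrls*, a microglia-enriched Fc receptor-like gene, had 3247 ± 818 CPM in the controls and 2104 ± 144 CPM in CSF1 OE mice (log2 fold change -0.63, adjusted p = 0.168 by edgeR). *Fcrl1* had 42.3, 46.1, 45.0 and 27.6 CPM in the controls and between 19.0 and 27.3 CPM in CSF1 OE mice, with no overlap (log2 fold change -0.78, adjusted p = 0.0859 by edgeR). *Fcgrt*, the gene of the neonatal Fc receptor, had -0.28, and *Trim21*, the gene of an antibody receptor of the cytosol, had -0.11. These log2 fold changes had the opposite sign to those of *Fcgr1*, *Fcgr4* and *Fcer1g*.

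Src family kinases phosphorylate ITAMs, and of the 6 tested 0 were called by edgeR, DESeq2 or limma, with 1 at an unadjusted p under 0.05 and a median log2 fold change of 0.19. *Yes1* was the lowest at -0.28. Of 30 tested effectors below SYK, 0 were called by edgeR, 3 had an unadjusted p under 0.05, and the median was 0.04. *Lat2*, the gene of an adapter that SYK-type kinases phosphorylate, was the largest at 1.46 (adjusted p = 0.0937 by edgeR), with 51.3, 22.8, 18.1 and 16.0 CPM in the controls and 59.6 to 85.2 CPM in CSF1 OE mice. It did not overlap between the groups, DESeq2 called it and limma did not. *Zap70*, the relative of *Syk* in T cells, was the lowest at -0.96, from 1.75 ± 0.798 to 0.889 ± 0.361 CPM (adjusted p = 0.328 by edgeR).

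Of 12 tested negative regulators of ITAM signalling, 0 were called by edgeR, DESeq2 or limma, 0 had an unadjusted p under 0.05, and the median log2 fold change was 0.04. *Pag1* (0.30) and *Dok3* (-0.23) were the extremes, and the phosphatase genes *Inpp5d* and *Ptpn6* had 0.19 and 0.13. Of 13 tested ligands and sheddases of TREM2, 1 was called, *Apob*, which fell by 1.98 on the log2 scale (adjusted p = 0.00160 by edgeR), and the median was 0.09. *Apoe*, a lipid carrier that TREM2 binds, was the largest at 0.52 (adjusted p = 0.141 by edgeR), with 2333 ± 338 and 3348 ± 350 CPM and no overlap. DESeq2 called both.

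Of the 9 tested genes that microglia are known to need *Trem2* to raise in disease, 9 had a log2 fold change above 0, with a median of 0.33, and 2 were called by edgeR. *Itgax*, the gene of CD11c, rose from 10.3 ± 2.31 to 33.3 ± 12.2 CPM (log2 fold change 1.70, adjusted p = 0.0431 by edgeR), and *Axl*, the gene of a receptor kinase for apoptotic cells, rose by 2.20 on the log2 scale (adjusted p = 0.00160 by edgeR). *Cst7* had 1.27 (adjusted p = 0.0894), with no overlap between 4.03 ± 1.41 and 9.70 ± 2.14 CPM. DESeq2 called 3 genes of this list higher, *Axl*, *Itgax* and *Cst7*, as did the fit with the range covariate, and limma called *Axl* and *Itgax*. *Cd9* was lowest at 0.01. *Csf1*, the gene of the growth factor made by the transgene, is on this list too (0.19). *Trem2* itself had 0.15 in the same fit.

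With the range covariate, in a fit that called 9.50% of all genes, edgeR called *Pira2* of the other ITAM-coupled receptors, *Lat2* and *Rac2* of the effectors and *Pag1* of the negative regulators, all higher. In that fit it called *Apoe* higher and *Apob* lower, and 0 of the other Fc receptors and 0 of the Src family kinases. Without control mouse 1934, the median log2 fold change was -0.05 for the effectors and -0.0024 for the negative regulators.

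Genes of the receptors examined are also expressed by other myeloid and lymphoid cells, and the marker lists of those cells were summed in each library. Border macrophage markers ranged from 1603 to 2519 CPM in the controls and from 1312 to 1939 CPM in CSF1 OE mice, and monocyte markers from 541 to 912 CPM and from 272 to 596 CPM. Most of the monocyte sums was *Fn1* (means of 639 and 386 CPM), while *Ccr2* had 11.1 ± 4.46 and 7.45 ± 3.53 CPM. Of the 7 tested monocyte markers, 5 had a log2 fold change below 0 and 2 above. *Plac8* was higher in CSF1 OE mice without overlap, at 7.28 ± 3.58 and 23.7 ± 11.4 CPM. Neutrophil markers ranged from 302 to 581 and from 379 to 734 CPM, and most of these sums was *Csf3r* (means of 353 and 400 CPM). Other neutrophil markers were highest of the 8 libraries in CSF1 OE mouse 2019. They were *S100a9* at 82.4 CPM (controls up to 41.3), *S100a8* at 40.2 CPM (controls up to 14.9) and *Ngp* at 43.8 CPM (controls up to 17.8). *Mmp9* and *Cxcr2* were not highest in that mouse. Markers of T and natural killer cells, which use *Hcst* and, in the latter, *Fcgr3*, ranged from 1.34 to 1.59 CPM and from 1.54 to 2.39 CPM, with *Ncr1* at 0 in all libraries and *Klrb1c* at 0.430 ± 0.178 and 1.25 ± 0.535 CPM without overlap. B cell markers ranged from 7.93 to 19.7 and from 12.2 to 16.3 CPM with *Pax5* at 0, and mast cell markers, whose cells use *Fcer1g*, from 4.97 to 12.5 and from 4.34 to 10.4 CPM. Endothelial cell markers, which the beads should not select, ranged from 717 to 1208 and from 344 to 840 CPM, and astrocyte markers from 347 to 642 and from 293 to 665 CPM. Each of these sums overlapped between the groups. By edgeR 0 genes of these lists were called, but 7 of 8 border macrophage markers had a log2 fold change below 0, with a median of -0.44 and 6 at an unadjusted p under 0.05. So did 8 of 8 endothelial markers (median -0.68, 3 at an unadjusted p under 0.05) and 5 of 5 tested red blood cell markers (median -1.58, 0 at an unadjusted p under 0.05). DESeq2 called *Cd163* and *Ly6c1* lower and *Plac8* higher, limma called 0, and with the range covariate edgeR called 7 of the 8 endothelial markers, *Fn1*, *Gja1* and *Hba-a2* lower and *Siglec1* higher. Their part in the values of *Fcgr4*, *Hcst* and the other genes examined was not tested.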

How the data were processed

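RNA of CD11b+ cells was measured in 1 library per mouse, 4 control and 4 CSF1 OE, with groups taken from the genotype codes in the labels and 0 columns left unmapped. Per the labels and the study's methods, the authors used bcl2fastq 1.8.4, Bowtie 1.0.0 and RSEM 1.2.7 on mm10 with paired-end reads, and deposited expected counts per gene without normalization. The second deposited table, a signal on the scale of counts, holds the expected counts divided by 1 size factor per mouse by the authors. The annotation and strand setting are not given in the sources used here. RSEM divides reads that fit several genes.

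Expected counts were rounded and fitted with edgeR 4.0.16 under R 4.3.3 (TMM normalization, filterByExpr, quasi-likelihood test), with Benjamini-Hochberg adjustment over 13407 genes. The study used EBSeq, which was not run. The common biological coefficient of variation was 0.228. CPM used TMM-normalized library sizes, and a prior count of 2 on the log2 scale. Alternatives were DESeq2 1.42.0 and limma 3.58.1 (on the authors' values, pseudocount 1), other size factors and filters, a robust prior, the range of animal numbers as a covariate, *Fcgr2b* and *Fcgr3* summed, and each mouse left out. The scale of 10 homeostatic microglia genes and the longest coding transcript were choices made after seeing the data. Scripts were tested on simulated data.

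The 10 genes and all lists were chosen with earlier results of these data known. Named besides them were the highest and lowest log2 fold change of each list, the 3 most similar genes (a few genes that this rule names are not reported here), *Csf1*, *Csf1r* and cell type markers, while *Siglech*, *Rac2*, *Fcrls*, *Fcgrt*, *Inpp5d*, *Ptpn6*, *Cst7* and *Itgax* were chosen after their values were seen. A count of 0 allows up to 3 counts, which was 0.177 to 0.266 CPM, for counting error only. Nothing says that mice came from separate litters, so p-values measure the spread between these mice.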

Additional observations from a re-analysis of the deposited data

Results flagged for a closer look

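The ratio of *Plcg2* to *Syk* counts in CSF1 OE mouse 1931 was 0.975 (97.5%), apart from the other 3 CSF1 OE mice, which lay between 0.874 and 0.891. Its gap to the nearest mouse exceeded Dixon's 95% critical value for 4 samples. It was 1 of 34 groups of 4 values examined, of which chance gives about 1 in 20.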

How the results depend on the processing

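The number of the 10 genes called moved from 0 to 1 with DESeq2 (*Fcgr4*) and to 5 with the covariate for the range of animal numbers, and was 0 with each mouse left out and in the other alternatives. Genes called over the whole table, 59 in all, were 427 with DESeq2, 19 with upper-quartile factors, 104 with limma, 1273 with the range covariate and 0 with the microglia scaling, and between 3 (without control mouse 1872 or 1874) and 164 (without control mouse 1827) with a mouse left out. It was 4 without CSF1 OE mouse 1931, 8 without 1936, 10 without control mouse 1934 and 18 without CSF1 OE mouse 1932. With the range covariate, the median log2 fold change was 0.24 for the other ITAM-coupled receptors, against -0.38 to 0.15 with a mouse left out, and 0.22 for the ligands and sheddases of TREM2. The cause was not tested.

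The log2 fold change of *Syk*, near 0, turned positive with DESeq2 (0.0028), without a filter (0.0034), with limma (0.0014), with the range covariate (0.20) and with the microglia scaling (0.00011), and ran from -0.092 to 0.082 with a mouse left out (0.013 without 1827, 0.022 without 1874, 0.059 without 1936, 0.080 without 1932). With a mouse left out, *Fcgr2b* ran from -0.039 (without CSF1 OE mouse 1931) to 0.16 and *Fcgr3* from -0.020 (without control mouse 1934) to 0.19. The other 7 genes kept a log2 fold change above 0 in all 18 alternatives. The low counts of *Hcst* and *Fcgr4* limit their precision. No paired analysis was possible because the animal numbers of the groups are not shared.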
